A study of Mus musculus with 24 samples.

Results

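The comparison concerns 15 of 24 mouse brain tumours profiled on single-colour expression arrays: the 6 whose class gene is given as RAB3A and the 9 whose class gene is given as ZNF668. Members were chosen by that label alone. All were cut from the cortex, each tumour was run on 1 array, and by the design text they arose from cells made to express the class gene. The remaining 9 tumours, of class gene BC74C, served in the estimate of spread, and otherwise only their means of some called genes are given. The labels name no host strain, age, promoter, or other allele, and they do not say that the tumours came from separate animals, so p-values here measure only the spread between these samples. Of the RAB3A tumours 2 are labelled ependymoma, 2 TUMOR and 2 UNKNOWN, with 0 labelled HGG. Of the ZNF668 tumours 3 are labelled ependymoma, 3 TUMOR, 2 HGG and 1 UNKNOWN. Titles begin with elw in 4 RAB3A and 6 ZNF668 tumours and with mmr in the other RAB3A (replicates 5 and 6) and ZNF668 tumours (replicates 7, 8 and 9). What the prefix stands for is not given in the sources used here. Replicate numbers follow the order of deposit.

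RAB3A is a small GTPase of synaptic vesicles, which in its GTP-bound form binds effectors at the presynaptic release site. ZNF668 is a nuclear zinc finger protein, with the mouse orthologue Zfp668. Ependymomas are glial tumours with features of ependymal cells and radial glia, the cells that line the ventricles and the stem cells of the developing brain. In tumour tissue the cell cycle transcripts follow how many cells divide, and neuron transcripts can come from brain enclosed in the sample. In such bulk RNA fewer cells of a type and less RNA per cell cannot be told apart.

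All values are log2 expression values, on which a difference of 1 is a doubling. Array medians lay between 4.98 and 5.191, and the correlation between arrays of these 15 tumours ran from 0.888 to 0.989. Precision is limited by how many arrays there are, and the standard error of a difference had a median of 0.23. The RAB3A replicate 5 and ZNF668 replicate 9 arrays were least like the others, with a median correlation of 0.934 and 0.936 with the other 14. Motile cilia genes, which mark ependymal cells, were dim in both groups, with list means of 4.69 ± 0.43 (SD, RAB3A, n = 6) and 4.47 ± 0.17 (SD, ZNF668, n = 9), and 18 of 27 measured members were bright enough to be tested. Astrocyte transcripts were abundant, at 10.09 ± 0.64 (SD, n = 6) and 9.94 ± 0.94 (SD, n = 9).

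The mouse transcripts of the class genes were examined first. Rab3a was at 9.30 ± 0.86 (SD, n = 6) when RAB3A was the class gene and at 8.55 ± 1.30 (SD, n = 9) when ZNF668 was, a difference of 0.75 that did not pass (two-sided exact permutation test over 5005 arrangements, p = 0.236, and 0.236 after adjustment over both transcripts). The highest Rab3a value of the 15 tumours, 10.62, belonged to ZNF668 replicate 9, so the groups overlapped. Zfp668 averaged 4.79 ± 0.30 (SD, n = 6) against 4.99 ± 0.26 (SD, n = 9), a difference of -0.20 (exact permutation p = 0.199, adjusted 0.236). Its other probe set was dimmer and had the opposite sign, 0.48 (exact permutation p = 0.0198). An introduced human gene need not be seen by mouse probe sets, so neither transcript settles whether the labels are right.

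A gene was called when its adjusted p lay under 0.05 (limma, Benjamini-Hochberg over 13218 genes). RAB3A tumours differed from ZNF668 tumours in 10 called genes, 0.0757% of those tested. Gdpd3 was higher in RAB3A tumours (1 gene, 0.00757%). Lower there were 9 genes (0.0681%): Gsta2, Smco3, Proca1, Angptl6, Slc27a3, Nol3, Abhd11os, Opn3 and 1 gene known only by a predicted name. Higher and lower are relative to ZNF668 tumours. All named called genes except Opn3 had a BC74C mean nearer the RAB3A mean than the ZNF668 mean. The BC74C, RAB3A and ZNF668 means were 9.52, 10.01 and 5.97 for Gdpd3 and 3.79, 4.32 and 7.82 for Gsta2. For Opn3 they were 7.14, 6.32 and 7.84. At an unadjusted p under 0.05 there were 1217 genes (9.21%, where 661 would be reached by chance), of which 379 were higher (2.87%) and 838 lower (6.34%) in RAB3A tumours. Over all genes the median difference was -0.04, with 43.8% of genes positive and 56.2% negative. With proliferation as a covariate, described further on, the median was -0.03, with 44.3% positive and 55.7% negative.

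Gsta2 encodes a glutathione S-transferase that conjugates glutathione to reactive compounds. It ranged from 3.48 through a median of 3.63 to 7.85 in RAB3A tumours, and from 4.79 through 8.12 to 9.70 in ZNF668 tumours. In 5 RAB3A tumours Gsta2 lay between 3.48 and 3.78, below every ZNF668 tumour, and RAB3A replicate 6 alone sat inside the ZNF668 range. Those 5 values lay at the filter on dim genes, a log2 mean of 3.76, so how far Gsta2 lay lower in them is uncertain. The difference was -3.50 (SE 0.60, limma adjusted p = 0.0381), and a further probe set of the gene gave -2.70. The close paralogue Gsta1 may share probes with Gsta2, and probe sequences were not used here. Within elw titles the difference was -4.59 and within mmr titles -1.33.

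Gdpd3, a glycerophosphodiester phosphodiesterase of phospholipid breakdown, had the opposite pattern. It ran from 8.61 through 9.86 to 11.19 in RAB3A tumours and from 4.43 through 5.10 to 9.30 in ZNF668 tumours. The ZNF668 tumours were spread widely, and 5 of 6 RAB3A tumours lay above the highest of them. Gdpd3 was higher in RAB3A tumours by 4.05 (SE 0.76, limma adjusted p = 0.04). Unlike Gsta2 its difference was of like size under both title prefixes, 3.81 within elw and 4.51 within mmr, although the difference between prefixes was not tested.

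The 250 bases upstream of the start of both genes are shown because these genes had the widest called differences in each direction (RefSeq, assembly GRCm38.p6, printed 5′ to 3′ on the gene's strand). Capitals mark the CCAAT box or its reverse complement, a promoter element bound by NF-Y.

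Gsta2, chr9:78347146-78347395, minus strand: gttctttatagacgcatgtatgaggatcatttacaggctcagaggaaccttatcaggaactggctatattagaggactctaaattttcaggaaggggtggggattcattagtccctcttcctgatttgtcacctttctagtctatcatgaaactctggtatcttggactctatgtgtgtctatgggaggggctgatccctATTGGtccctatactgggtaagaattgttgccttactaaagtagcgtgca

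Gdpd3, chr7:126766164-126766413, plus strand: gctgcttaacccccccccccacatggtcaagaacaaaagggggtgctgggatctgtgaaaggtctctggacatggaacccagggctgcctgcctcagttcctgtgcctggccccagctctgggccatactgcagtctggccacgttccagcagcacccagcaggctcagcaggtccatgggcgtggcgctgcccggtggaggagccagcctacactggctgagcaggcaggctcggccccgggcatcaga

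The Gsta2 window holds 1 such match and the Gdpd3 window 0. The core of the antioxidant response element, TGACNNNGC, was searched on both strands because Gsta genes are textbook targets of that element, and it had 0 matches in both windows. An element further upstream would lie outside these short windows, so the 0 cannot show that either gene lacks one. Among all 32851 RefSeq promoter windows of this length 33.8% held CCAAT and 10.2% held TGACNNNGC. Of the genes called lower, 6 matched the promoter table with 7 windows, of which 3 held CCAAT and 0 held TGACNNNGC.

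The other genes called lower shared one feature: RAB3A replicate 6 stood nearest the ZNF668 mean. Smco3, a small membrane protein, ran from 3.01 through 3.19 to 6.48 in RAB3A and from 4.31 through 6.66 to 7.79 in ZNF668 tumours, a difference of -2.74 (SE 0.52, limma adjusted p = 0.0416). Proca1 ran from 3.14 through 3.82 to 6.74 and from 5.34 through 7.05 to 8.17, a difference of -2.69 (SE 0.52, limma adjusted p = 0.0416). Proca1 was lower within elw titles by -4.06 and not within mmr titles, where the value was 0.05. When title prefix was a block, the limma calls of Proca1 (adjusted p = 0.0553), Slc27a3 (0.051) and Opn3 (0.0553) were lost and 7 of the 10 were left. As for Gsta2, the median of Smco3 and Proca1 in RAB3A tumours lay near the filter on dim genes, a log2 mean of 3.76. Angptl6, a secreted angiopoietin-like protein, ran from 6.42 through 6.84 to 8.20 and from 7.55 through 9.53 to 10.33, a difference of -2.18 (SE 0.40, limma adjusted p = 0.0381). Slc27a3, an acyl-CoA synthetase of the fatty acid transport protein family, differed by -1.84 (SE 0.36), with 3.98 to 6.65 in RAB3A and 5.58 to 7.39 in ZNF668 tumours. Replicate 6 overlapped the ZNF668 tumours for both genes, as did replicate 3 for Slc27a3, and the other RAB3A tumours lay below all of them.

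Nol3 is a repressor of apoptosis with a caspase recruitment domain. It ran from 6.12 through 6.53 to 8.47 in RAB3A tumours and from 8.08 through 8.57 to 9.03 in ZNF668 tumours. The difference was -1.71 (SE 0.31, limma adjusted p = 0.0381). The other probe sets of Nol3 gave -1.56 and -0.61. Abhd11os, a non-coding transcript from the strand opposite Abhd11, ran from 4.58 through 4.89 to 6.30 and from 5.82 through 6.49 to 7.56, a difference of -1.58 (SE 0.28, limma adjusted p = 0.0381). Opn3, a non-visual opsin found in brain, had no overlap at all: its highest RAB3A value, 7.13, lay just under its lowest ZNF668 value, 7.15. Opn3 differed by -1.52 (SE 0.30, limma adjusted p = 0.0416).

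**Figure D1:**
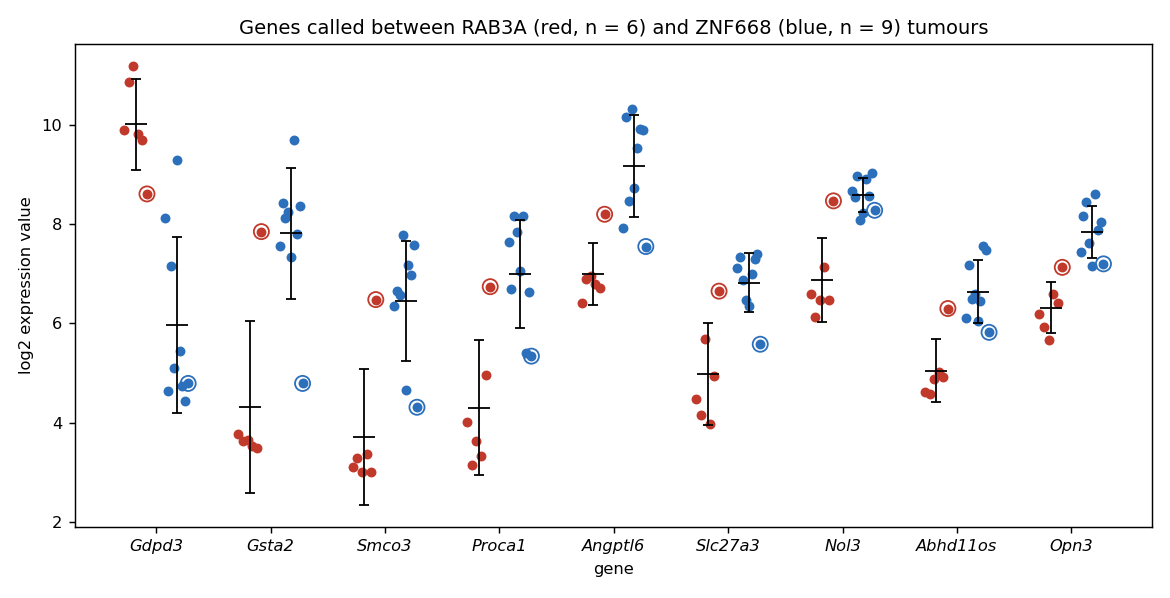
Log2 expression value (vertical axis) of the 9 named genes called between RAB3A (red, n = 6) and ZNF668 tumours (blue, n = 9), with 1 point per tumour and black bars for the mean and SD. Open rings mark RAB3A replicate 6 and ZNF668 replicate 9; for Gsta2 the ringed RAB3A tumour sits at 7.85 and the other 5 between 3.48 and 3.78.

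The tumour that overlapped was the same one throughout. Over the 10 called genes RAB3A replicate 6 was the RAB3A tumour nearest the ZNF668 mean in 10 and lay inside the ZNF668 range in 9; replicate 3 lay inside it in 1 and the other RAB3A replicates in 0. Among ZNF668 tumours replicate 9 was nearest the RAB3A mean in 7 of the 10. Without RAB3A replicate 6, 40 genes were called, 1 higher and 39 lower, and all 10 were among them. Without ZNF668 replicate 9 the count was 28. Without RAB3A replicate 5 and ZNF668 replicate 9, the arrays least like the rest, it was 11, of which 7 were among the 10 and 0 were higher in RAB3A tumours. In the other direction, no gene was called (limma, with 713 to 1921 genes at an unadjusted p under 0.05) in 12 of 24 fits made with 1 tumour fewer. The tumours left out in those 12 were 5 of RAB3A (replicates 1 to 5), 5 of ZNF668 (2, 3, 4, 6 and 8) and 2 of BC74C (6 and 8). Without ZNF668 replicate 1 or 7 there were 5 and 4, and without BC74C replicate 2, 5 or 9 there were 6 each.

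Several alternatives with other covariates or fewer tumours called no gene, while Gsta2 and Gdpd3 kept their direction in these fits. Others kept or gained calls: 21 genes within elw titles, 8 of them among the 10, and 7 with title prefix as a block. All of these fits reuse the same tumours, so a kept direction is no independent support. With the mature neuron and myelin list means as covariates 0 genes were called (limma, 462 at an unadjusted p under 0.05), and Gsta2 differed by -2.84 and Gdpd3 by 3.16. With the tumour label as a covariate 0 were called (611 unadjusted), at -3.10 for Gsta2 and 3.77 for Gdpd3, and among tumours labelled ependymoma 0 (400 unadjusted), at -2.70 and 3.13. Counts of 0 also came from the 15 tumours without BC74C (1159 unadjusted), within mmr titles (229 unadjusted), and without the HGG tumours (608 unadjusted).

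No gene was higher in every RAB3A tumour than in every ZNF668 tumour, and 6 were lower throughout, 0.0454% of those tested. The widest gap was that of Wnk4, a kinase that regulates ion cotransporters, at 3.66 to 4.25 in RAB3A and 4.51 to 6.51 in ZNF668 tumours. Its RAB3A median, 3.82, lay near the filter on dim genes, 3.76. Hebp2, a heme-binding protein, lay at 5.02 to 5.73 against 5.79 to 7.01. Opn3 was the one called gene among them. Nmrk1, a nicotinamide riboside kinase of NAD synthesis, lay at 4.07 to 4.78 against 4.79 to 5.59, and Gpn1, a GTPase of RNA polymerase assembly, at 8.36 to 8.61 against 8.63 to 9.04. The differences of Wnk4, Hebp2, Nmrk1 and Gpn1 were -1.34, -0.99, -0.58 and -0.27, none of which was called (limma adjusted p from 0.285 to 0.479). Further probe sets gave -0.53 and 0.0 for Hebp2, -0.67 and 0.13 for Nmrk1 and -0.11 for Gpn1. The sixth gene, beyond the 5 widest gaps, was Rerg.

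Genes short of the threshold are given as values. On the higher side the smallest p-values after Gdpd3 belonged to Polrmt, the mitochondrial RNA polymerase, at 0.68 (SE 0.19), and Flrt2, a cell adhesion molecule, at 1.44 (SE 0.41). Gnpnat1 of hexosamine synthesis was at 0.70, Ranbp3l at 1.43, the Wnt ligand Wnt10a at 1.22, the interleukin-12 subunit Il12a at 1.36, Pou6f1 at 0.55, Tstd3 at 0.95 and Bcar3 at 1.19. Their limma adjusted p lay between 0.37 and 0.42. Further probe sets gave 0.66 and 1.39 for Flrt2, 0.05 to 0.72 for Gnpnat1, -0.03 for Pou6f1 and 0.03 for Bcar3. The Il12a mean owed much to RAB3A replicate 5, at 7.15 against 3.33 to 5.38 in the other RAB3A tumours. On the lower side Btn1a1, a butyrophilin, was at -1.34 (SE 0.27, limma adjusted p = 0.0509) and Slc25a1, the mitochondrial citrate carrier, at -0.89 (SE 0.18, limma adjusted p = 0.0577). Further probe sets of Btn1a1 gave -0.02 and 0.05. Its median in RAB3A tumours, 3.24, lay below the filter on dim genes, 3.76.

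Proliferation was the covariate of the second fit. The proliferation list holds 25 measured cell cycle genes and had means of 6.57 ± 1.56 (SD, RAB3A, n = 6) and 7.28 ± 1.63 (SD, ZNF668, n = 9), a difference of -0.71 that is smaller than either SD. The list mean ran from 4.87 through 6.32 to 8.74 in RAB3A and from 5.43 through 7.50 to 9.29 in ZNF668 tumours, so both groups held tumours low and high in cell cycle transcripts. All 25 of 25 members had a negative difference, with a median of -0.65, and 0 were called. Birc5, which acts in chromosome segregation and blocks cell death, was at -1.17, the mitotic kinase Aurka at -1.15, and Mki67, the common marker of dividing cells, at -0.65. The replication licensing list had 19 of 20 members negative with a median of -0.46, where Gins2 of the replicative helicase was at -0.85. The mitotic spindle and checkpoint list had 18 of 19 negative with a median of -0.65. The list difference was -0.37 without RAB3A replicate 1 and -1.14 without RAB3A replicate 5. It was -0.19 without the HGG tumours, -0.38 with the tumour label as a covariate, -0.33 within mmr titles and -1.25 among ependymomas, and with the neuron and myelin list means as covariates it was 0.22. Without both RAB3A replicate 5 and ZNF668 replicate 9 it was -1.37.

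The upstream window of Aurka is printed as an example of the covariate's genes, with the CCAAT box again in capitals.

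Aurka, chr2:172370571-172370820, minus strand: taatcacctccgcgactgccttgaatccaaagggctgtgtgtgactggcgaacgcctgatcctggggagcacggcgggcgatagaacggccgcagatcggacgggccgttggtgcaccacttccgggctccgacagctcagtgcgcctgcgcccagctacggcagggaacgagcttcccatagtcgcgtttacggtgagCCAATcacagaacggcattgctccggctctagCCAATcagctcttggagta

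Aurka holds 2 matches. CCAAT was found in 12 of 16 windows of the mitotic list (75.0%) and in 14 of 17 of the replication licensing list (82.4%), against 33.8% of all windows. In the mature neuron list 7 of 18 windows held it (38.9%). TTTGAA, the core of the cell cycle homology region, was found in 4 of 16 mitotic windows (25.0%) and 16.0% of all windows, on both strands and counted also where it overlapped another motif. A match is a run of letters and not a site shown to be bound.

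With the proliferation list mean as a covariate 4 genes were called, 0.0303% of 13218, all lower in RAB3A tumours and all among the 10. Gsta2 was at -3.35 (SE 0.60), Angptl6 at -1.97 (SE 0.35), Nol3 at -1.73 (SE 0.32) and Abhd11os at -1.49 (SE 0.27), each with a limma adjusted p of 0.0473. Gdpd3 kept its size, 3.95 (SE 0.78), and missed the threshold with a limma adjusted p of 0.0625. With the title prefix as a block in this fit it was called, at 4.07 (limma adjusted p = 0.0392), which made the count 5 with 1 higher, and it was also called with a proliferation slope per class gene (adjusted p = 0.00907). With only the proliferation list mean added, Smco3 at -2.60, Proca1 at -2.75, Slc27a3 at -1.68 and Opn3 at -1.41 also had a limma adjusted p of 0.0625. Of these 9 genes Angptl6 shifted most, from -2.18 without the covariate to -1.97 with it.

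**Figure D2:**
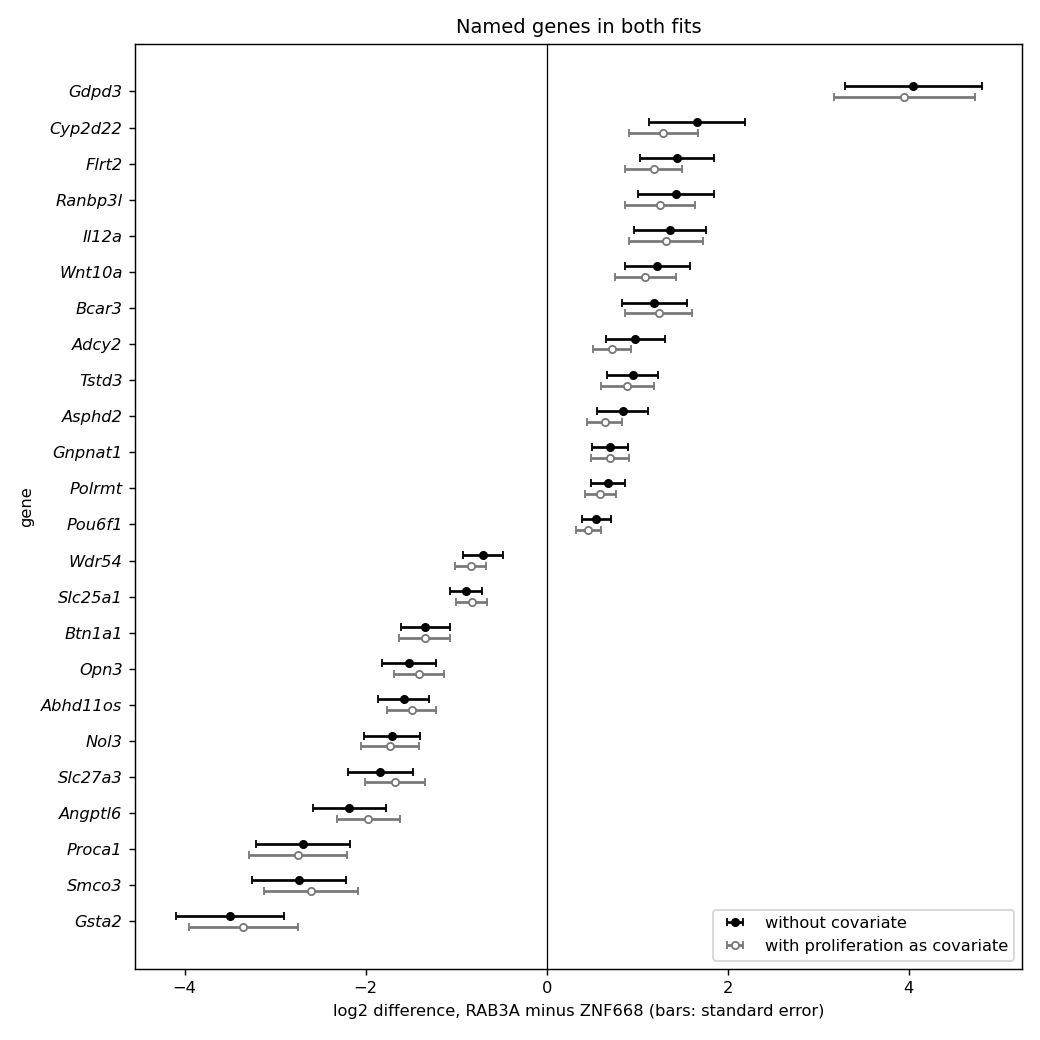
Log2 difference, RAB3A minus ZNF668 (horizontal axis, bars give the standard error), of the called genes and the genes of smallest p, without (black) and with (grey, open) proliferation as a covariate. The paired points lie close together, as for Gdpd3 at 4.05 and 3.95 and Gsta2 at -3.50 and -3.35.

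The genes next in line changed with the covariate. On the higher side Adcy2, an adenylyl cyclase of brain, was at 0.72 (SE 0.21) with the covariate and 0.98 without, Cyp2d22 at 1.29 and 1.66, and Asphd2 at 0.64 and 0.84. On the lower side Wdr54 was at -0.84 (SE 0.17, limma adjusted p = 0.0625) with the covariate and -0.70 (adjusted p = 0.432) without. Across the table the count at an unadjusted p under 0.05 was 989 (7.48%), with 335 higher (2.53%) and 654 lower (4.95%). Of the 379 higher genes 259 kept a p under 0.05 with the covariate and of the 838 lower genes 592 did, and 0 of either changed sign. Differences of more than 1 were found in 527 genes without the covariate, 320 higher and 207 lower, and in 264 with it, 130 higher and 134 lower. The excess of large positive differences was thus not seen with proliferation in the model. The 4 calls were less stable than the 10: limma called 0 (582 to 1313 at an unadjusted p under 0.05) in 20 of 24 fits made with 1 tumour fewer, and 48 without RAB3A replicate 6, 20 without ZNF668 replicate 9, and 1 each without ZNF668 replicate 5 and BC74C replicate 4. Without both RAB3A replicate 5 and ZNF668 replicate 9 it called 3, of which 1 was among the 4.

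Neuron transcripts had the widest list differences without the covariate, and these were smaller with it. The mature neuron list had means of 9.08 ± 1.03 (SD, RAB3A, n = 6) and 7.79 ± 1.70 (SD, ZNF668, n = 9), with a range of 7.52 to 10.07 against 4.47 to 9.93. All 21 of 21 members had a positive difference, with a median of 1.19, where all genes had -0.04. At an unadjusted p under 0.05 there were 3 of 21, all higher (14.3%, against 2.87% of all genes), and 0 were called. Such a share was not particular to neurons: in the oligodendrocyte progenitor list 3 of 12 were lower (25.0%, against 6.34% of all genes). With proliferation as a covariate 1 of 21 neuron genes had an unadjusted p under 0.05. In that fit 18 of 21 were positive, with a median of 0.65, and the difference of list means went from 1.30 to 0.77. Among tumours labelled ependymoma it was 0.07, without ZNF668 replicate 7, the tumour lowest in neuron transcripts, 0.88, and without both RAB3A replicate 5 and ZNF668 replicate 9 1.40.

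**Figure D3:**
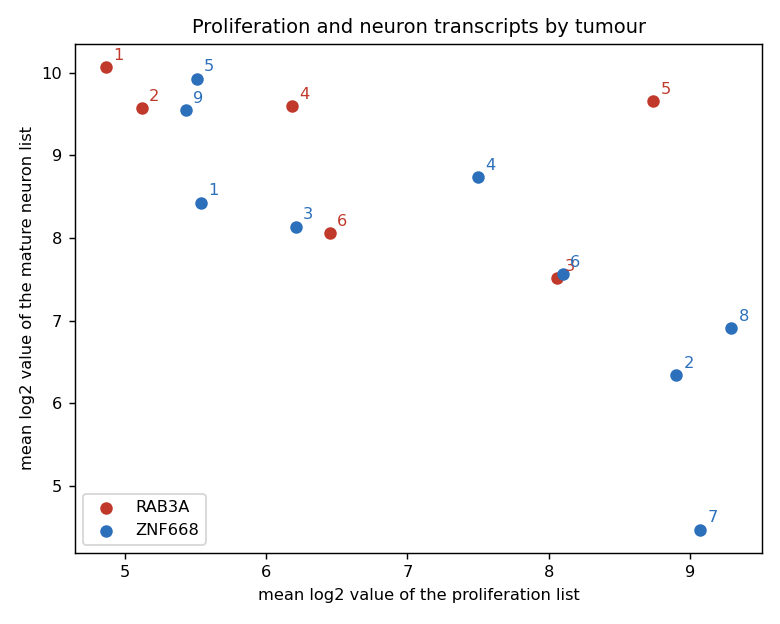
Mean log2 value of the proliferation list (horizontal) and of the mature neuron list (vertical) in each RAB3A (red) and ZNF668 tumour (blue), numbered by replicate. ZNF668 replicate 7 lies lowest, at 4.47 for neurons, RAB3A replicate 1 highest, at 10.07, and RAB3A replicate 5 has high values of both lists, 8.74 and 9.66.

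Within the neuron list the highest moderated t belonged to Neurod6 and Tbr1, which act as transcription factors in excitatory neurons of the cortex. Tbr1 was at 2.0 (SE 0.86). Neurod6 ran from 3.01 through 6.83 to 8.87 in RAB3A and from 2.78 through 3.55 to 5.80 in ZNF668 tumours, a difference of 2.46 (SE 0.86, limma adjusted p = 0.479). It was high in RAB3A replicates 1, 2, 4 and 5 and in the ZNF668 range in 3 and 6. Presynaptic release genes gave 20 of 20 positive, with a median of 1.13 without and 0.65 with the covariate. Complexin Cplx2 was at 1.50, the active zone scaffold Pclo at 1.72, and Cadps, which primes dense-core vesicles, at 1.37. In the list of Rab3 GTPases, their regulators and effectors, 10 of 13 were positive with a median of 0.56 and 0.28 with the covariate, and the effector Rims1 was at 1.48. Voltage-gated channels had 14 of 15 positive (median 0.75, and 0.33 with the covariate), led by Cacnb4 at 1.31 and Scn8a at 1.29. Glutamate and GABA receptors had 11 of 16 positive (0.34 and 0.14), with Gabra5 at 1.56 and Gria2 at 0.60. Immature neuron genes of the neuronal progenitor list had a median of 0.23 and 0.13. None of these genes was called, and their part in the calls was examined only through the covariates above.

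Glial precursor genes ran the other way. In the radial glia and neural stem list 21 of 23 members were negative, with a median of -0.33 and -0.26 with the covariate. The difference of its list means was -0.66 within elw and 0.04 within mmr titles. Tnc, a matrix protein of stem cell niches, ran from 3.56 through 6.63 to 8.82 in RAB3A and from 6.99 through 10.21 to 11.21 in ZNF668 tumours, a difference of -2.88 (SE 0.89, limma adjusted p = 0.432), and 6 of 6 RAB3A tumours lay below the ZNF668 mean. Fabp7, a fatty acid binding protein of radial glia, was at -1.13. In the oligodendrocyte progenitor list 10 of 12 were negative, with a median of -0.49 and -0.46. Matn4 was at -1.72 and Olig1, a transcription factor of the lineage, at -1.31, where RAB3A replicate 3 was lowest at 8.44. The exceptions in that list were Pdgfra at 0.07 and Tnr at 0.24. The myelin list had a median of -0.14 and -0.36, with the connexin Gjc3 at -1.05 and Mobp at 0.84, and the astrocyte list 0.04 and 0.01. Gjb6, a connexin of astrocytes, was at 1.64, made of 0.28 within elw and 4.35 within mmr titles. S100b of the astrocyte list was at -0.56.

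Ependymal genes differed little. The cilia list had 14 of 18 positive with a median of 0.17 and 0.11 with the covariate, with Enkur at 1.02 and the axonemal dynein Dnah11 at 0.33. Foxj1 and Rfx3 of the same list were at -0.37 and -0.33. The choroid plexus list had a median of 0.08 and 0.14.

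**Figure D4:**
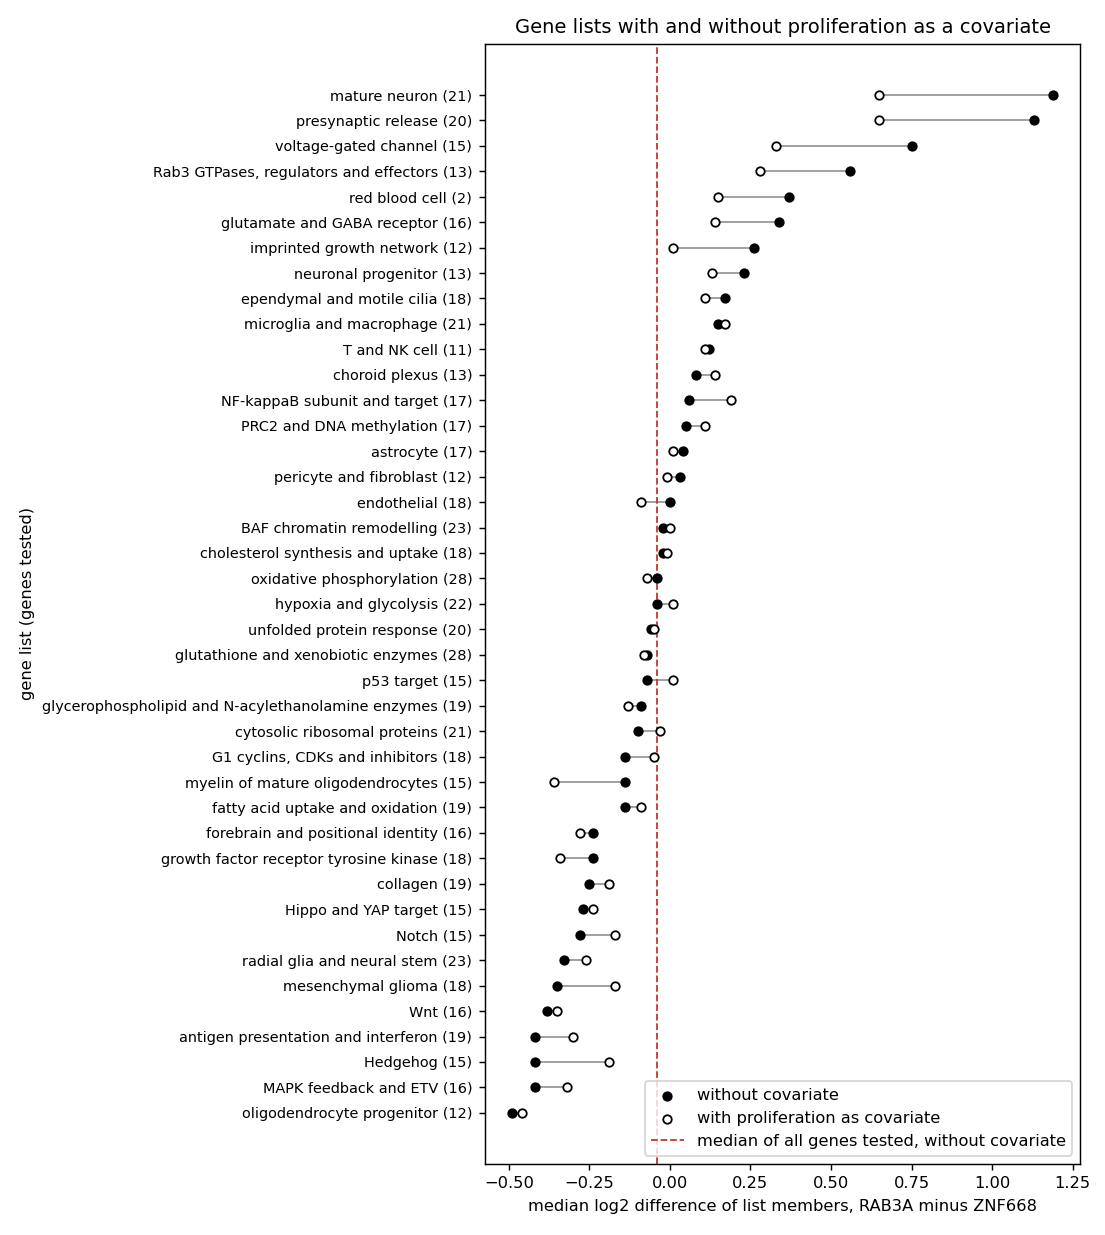
Median log2 difference, RAB3A minus ZNF668 (horizontal axis), over the tested members of 41 gene lists (vertical axis, number of genes tested in brackets), without (filled) and with (open) proliferation as a covariate; the dashed line is the median of all genes, -0.04. The 3 lists of dividing cells and the sex-linked list are not drawn, and the mature neuron list moves from 1.19 to 0.65.

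Signalling lists leaned to the negative side, and in none of them was a member called. All 16 of 16 genes of the MAPK feedback and ETV list, which report activity of receptor tyrosine kinases, were negative, with a median of -0.42 and -0.32 with the covariate. Spry4, a feedback inhibitor, was at -1.30, and its further probe sets lay between -0.84 and -0.07. In the Notch list 15 of 15 were negative (median -0.28, and -0.17 with the covariate), with the ligand Dll3 at -1.05 and the receptor Notch3 at -0.80. In the Wnt list 15 of 16 were negative (-0.38 and -0.35): the ligand Wnt7a was at -1.17, the feedback gene Axin2 at -0.55, and Dkk3, the exception, at 1.85. Other probe sets of Wnt7a and Axin2 gave 0.04 and 0.15. In the Hedgehog list 12 of 15 were negative (-0.42 and -0.19), with Hhip, which binds and removes the ligand, at -0.86. Further probe sets of Hhip lay between -0.11 and -0.08. Among the 3 positive members were Ptch1 at 0.23, with -0.03 for its other probe set, and Gli1 at 0.29. Gli1 was dim, with means of 3.71 in RAB3A and 3.42 in ZNF668 tumours. In the growth factor receptor list 11 of 18 were negative (-0.24 and -0.34), with Erbb2 at -0.81.

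The Hippo list, with 13 of 15 negative and a median of -0.27 and -0.24, held the gene nearest to a call among these pathways. Tead2, a DNA-binding partner of YAP, ran from 4.46 through 5.28 to 7.63 in RAB3A tumours and from 6.16 through 8.14 to 8.68 in ZNF668 tumours. The difference was -2.31 (SE 0.57, limma adjusted p = 0.217), with RAB3A replicate 6 again highest and ZNF668 replicate 9 lowest in their groups. All 6 of 6 RAB3A tumours lay below the ZNF668 mean. Amotl1, a regulator of YAP, was at -0.44. The 2 positive members were Ccn2 at 0.16 and Stk4 at 0.14, with -0.07 for the other probe set of Stk4. The difference of list means was -0.57 within elw and -0.07 within mmr titles.

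Cell cycle entry genes were mixed. Among G1 cyclins, kinases and inhibitors 12 of 18 were negative (median -0.14 and -0.05), with Ccnd1, the cyclin that drives exit from G1, at -1.03, the inhibitor Cdkn2b at -1.0 and the inhibitor Cdkn1c at 0.80. In the p53 target list 5 of 15 were positive and 10 negative, with Pmaip1 at 0.57 and Sesn1 at 0.44. On the negative side Gadd45a at -0.84 and Phlda3 at -0.59 had 6 of 6 RAB3A values under the ZNF668 mean, with a list median of -0.07 and 0.01.

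Metabolic lists stayed near the median of all genes. The 3 list members called lie in them: Gsta2 in the glutathione list (1 of 28 called, median -0.07 and -0.08), Slc27a3 in the fatty acid list (1 of 19, -0.14 and -0.09) and Gdpd3 in the glycerophospholipid list (1 of 19, -0.09 and -0.13). Of all genes tested 0.0757% were called. The lists were chosen with earlier results of these data known, so these counts cannot show that calls gather in metabolic genes. The direction of Gsta2 was not shared across its list: Gpx3, an extracellular glutathione peroxidase, was at -1.10 and Gclc, the rate-limiting enzyme of glutathione synthesis, at 0.52. In the lipid lists Pla2g4a, a cytosolic phospholipase, was at -1.31 and Acsl5, an acyl-CoA synthetase, at 0.47. Cholesterol genes had a median of -0.02 and -0.01, and hypoxia and glycolysis genes -0.04 and 0.01. Oxidative phosphorylation genes were at -0.04 and -0.07, where Sdhc of respiratory complex II was at -0.41 (SE 0.12, limma adjusted p = 0.42). Unfolded protein response genes were at -0.06 and -0.05, with the sensor Atf6 at 0.47 and the chaperone Canx at -0.28.

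At 2 decimals, 15 of 45 list means had differences of opposite sign within elw and within mmr titles. Antigen presentation and interferon genes had 15 of 19 negative (median -0.42, and -0.30 with the covariate), but the difference of list means was -0.92 within elw and 0.91 within mmr titles. Cxcl10, an interferon-induced chemokine, was at -2.49 within elw and 0.79 within mmr, and Gbp2 at -2.05 and 0.54. In the same list H2-Aa was higher by 0.70 and Cd74 by 0.89 over both prefixes. The mesenchymal glioma list gave -0.90 and 0.64, with Timp1, an inhibitor of metalloproteinases, at -2.17 and 0.56. The astrocyte list mean gave -0.41 and 1.26 and the myelin list mean -0.46 and 0.65. The microglia and macrophage list mean gave -0.03 and 0.64, NF-kappaB genes -0.37 and 0.56, choroid plexus genes -0.20 and 0.75, endothelial genes 0.16 and -0.58 and hypoxia and glycolysis genes 0.12 and -0.30. The differences between prefixes were not tested, and mmr rests on 2 RAB3A and 3 ZNF668 tumours. Microglia and macrophage genes had 18 of 21 positive, with a median of 0.15 and 0.17, and Mrc1 of perivascular macrophages at 1.07 and the protease Ctss at 0.49. Among the negative members were Trem2 at -0.47 and Cd14 at -0.20. T and NK cell genes were at 0.12 and 0.11, NF-kappaB genes at 0.06 and 0.19 (Birc3, an inhibitor of apoptosis, at 0.78) and red blood cell genes at 0.37 and 0.15 over 2 genes. Collagens had 12 of 19 negative (-0.25 and -0.19), with Col6a3 at -1.38 and Col16a1 at -0.91. Col6a3 was at -2.28 within elw and 0.42 within mmr titles. Among the 7 positive collagens were Col6a1 at 0.54 and Col1a1 at 0.12. Endothelial genes were at 0.00 and -0.09 (Ocln of tight junctions at -0.56) and pericyte and fibroblast genes at 0.03 and -0.01. The median over tested members and the difference of list means over measured members had opposite signs for NF-kappaB genes (0.06 and -0.06), pericyte and fibroblast genes (0.03 and -0.01) and the glycerophospholipid list (-0.09 and 0.02).

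Sex-linked transcripts differed between the groups by less than their SD among RAB3A tumours. Xist, from the inactive X chromosome, had means of 10.94 ± 1.10 (SD, RAB3A, n = 6) and 10.38 ± 0.93 (SD, ZNF668, n = 9), and the Y-linked Eif2s3y, Kdm5d and Uty differed by -0.84, -1.17 and -0.92. RAB3A replicate 5 was lowest for all 3 of these, at 3.11, 2.89 and 3.04. Further probe sets gave 0.02 for Eif2s3y, 0.03 and 0.09 for Kdm5d and -0.71 for Uty. Xist lay between 8.67 and 11.99 in all RAB3A and ZNF668 tumours. Eif2s3y lay between 5.98 and 9.28 in all but RAB3A replicate 5. RAB3A replicate 1, for example, had Xist at 11.97 and Eif2s3y at 7.63. The Y-linked mean was thus not read as the sex of the animal. With the mean of the 3 Y-linked genes as a covariate limma called 0 genes (685 at an unadjusted p under 0.05), while Gsta2 was at -3.11 (adjusted p = 0.0926) and Gdpd3 at 4.40 (adjusted p = 0.0919).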

How the data were processed

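Per the labels' protocols, Trizol was used to extract total RNA, and biotin-labelled cRNA of each tumour went onto 1 Affymetrix array. The deposited table gives log2 expression values for 45141 probe sets, from 2.403 to 13.851, and the log2 scale was read from the values. Partek 6.6 is named per the submitters' processing notes. Background correction and normalization are not given in the sources used here, and any step that made arrays alike would mask shifts common to most genes.

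After 104 control probe sets were left out, single symbols were given for 28898, more than one for 551, and no symbol for 15588. All 17097 genes took its single-symbol probe set of highest mean, and 13218 above the 30th percentile of probe set means (log2 3.76) were tested. Names come from the platform annotation, matched by Entrez identifier to RefSeq GRCm38.p6 for 28689 probe sets. Among probe sets without 1 symbol, 2 of 9797 were called lower and 0 higher in either fit.

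The fit was limma 3.58.1 in R 4.3.3 (lmFit, eBayes with trend), two-sided, with class gene over 24 tumours, then with the proliferation list mean added; Benjamini-Hochberg adjustment covered all genes and the threshold was 0.05. Genes were named by a rule: the 10 largest and 10 smallest differences called in each fit, filled to 10 by smallest p; the 5 widest gaps per direction among genes without overlap; up to 2 members of highest and 2 of lowest moderated t per list; and Rab3a, Zfp668, Mki67, Xist and Y-linked genes. Names from predictions or clones were passed over. The comparison, the 45 gene lists (775 of 875 genes measured, 722 tested) and the tests were chosen with earlier results of these data known. Lists are described by counts and medians. For all but the lists of dividing cells, values with the covariate were read.

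Tested on simulated data in which 200 among 13218 genes were shifted, RAB3A minus ZNF668 recovered 58% of shifts of 1 and 84% of shifts of 2, and with the covariate 60% and 86%. Noise was drawn independently for each gene and tumour, whereas genes of the real tumours vary together. These shares are therefore not the power of the real comparison. Plots used Python 3.11.15, pandas 2.3.3 and matplotlib 3.10.9.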

Additional observations from a re-analysis of the deposited data

Results flagged for a closer look

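In groups of 6 and 9 tumours, the highest or lowest value was compared with its nearest neighbour relative to the range (Dixon's test). Of 280 groups checked over 95 genes and 45 list means, 29 had a tumour standing apart, and chance gives about 1 in 20 groups.

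RAB3A replicate 6 stood high among RAB3A tumours for Gsta2 (7.85, next 3.78), Smco3 (6.48, next 3.37), Angptl6 (8.20, next 6.95), Abhd11os (6.30, next 5.02) and the oligodendrocyte progenitor gene Matn4 (8.43, next 6.13). RAB3A replicate 5 stood low for Kdm5d (2.89) and Eif2s3y (3.11) and for the sex-linked list mean (5.26), and high for the choroid plexus list mean (7.08, next 4.92). RAB3A replicate 1 was low for Nmrk1 (4.07), and RAB3A replicate 4 high for Ctss (13.00).

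ZNF668 replicate 9 stood low among ZNF668 tumours for Gsta2 (4.79, next 7.34), Kdm5d (5.30), Uty (3.54) and Olig1 (11.53) and high for Hhip (7.27). Its list means were low for radial glia and neural stem genes (7.29), astrocyte genes (7.64), Hedgehog genes (6.57), fatty acid genes (8.53) and sex-linked genes (6.50), and high for endothelial genes (8.53). ZNF668 replicate 6 was high for Zfp668 (5.55) and low for Atf6 (7.38), and ZNF668 replicate 5 high for Tbr1 (7.01). ZNF668 replicate 8 was high for Mrc1 (6.43) and the choroid plexus list mean (5.60), ZNF668 replicate 7 high for the hypoxia and glycolysis list mean (10.04), and ZNF668 replicate 1 low for Gpx3 (7.79).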

How the results depend on the processing

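The count of 10 called genes was 7 when title prefix was a block, 8 to 11 under a stricter filter, other probe set choices, other scalings, a robust variance model and without RAB3A replicate 5 and ZNF668 replicate 9 together (added after seeing the data). It was 6 with no filter on dim genes, 21 within elw titles and 21 with array weights. It was 0 by limma with only the 15 tumours, within mmr titles, with the tumour label, with the neuron and myelin list means or with the Y-linked mean as covariates, in ependymomas alone and without HGG tumours (229 to 1159 genes at an unadjusted p under 0.05), and 0 to 40 when 1 tumour was left out. With proliferation as a covariate the count of 4 was 5 when title prefix was a block, 0 (377 to 1184 unadjusted) under those same 7 settings and with no filter, array weights or the licensing list as the covariate, 21 within elw titles, 9 with a proliferation slope per class gene, and 0 to 48 when 1 tumour was left out. The proliferation list difference of -0.71 ran from -1.14 to -0.37 and the neuron list difference of 1.30 from 0.88 to 1.61 when 1 tumour was left out.

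Named differences that took the other sign were these, among the 95 genes carried through the settings, and the cause was not tested. Not every list member named above was carried through. Among those that were not, Foxj1 and Cd14 were at 0.19 and 0.17 within mmr titles. Likewise Cd74, Ccn2 and Stk4 were at -0.05, -0.15 and -0.29 within elw titles. Among the genes carried through, those reversed within mmr titles were Proca1 (0.05, and 0.04 with the covariate), Mki67 (0.11), Pmaip1 (-0.57), Col6a3 (0.42), Timp1 (0.56), Gbp2 (0.54) and Cxcl10 (0.79). In ependymomas alone, 2 RAB3A against 3 ZNF668 tumours, they were Eif2s3y (0.40), Xist (-0.81), Rab3a (-0.19, and -1.21 with the covariate), Gria2 (-0.18), Matn4 (0.22), Olig1 (0.08), Gjc3 (1.64), Hhip (0.02), Erbb2 (0.24), Ctss (-0.05), Birc3 (-0.11), Acsl5 (-0.03), and with the covariate Tstd3 (-0.14) and Adcy2 (-0.06). With neuron and myelin means as covariates they were Xist (-0.32), Rab3a (-0.20, and -0.18 with proliferation) and Mki67 (0.63). Zfp668 was at 0.48 with its most variable probe set and 0.14 as a mean of both (0.42 and 0.11 with proliferation), and Gpn1 at 0.01 with proliferation and its most variable probe set. Eif2s3y was at 0.22 when the Y-linked mean was a covariate and ran from -1.16 to 0.03 when 1 tumour was left out, 0.03 being without RAB3A replicate 5. Rab3a with proliferation was at -0.11 with array weights and ran from -0.09 (without RAB3A replicate 5) to 0.50 when 1 tumour was left out. For 61 further list members the values with the covariate are not given gene by gene, a choice made after their reversals were seen: 48 of 2803 such values took the other sign, in 30 genes, and 29 of the 48 came from ependymomas alone.

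The neuron list was not refitted with its own mean as a covariate. No paired analysis was possible because the labels carry no replicate numbers. Signal over background was not assessed, since single probes were not used here.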

Other observations

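BAF chromatin remodelling genes had 11 of 23 positive differences (median -0.02), where the subunit Bcl7a was at 0.37 and Bcl7c at -0.54. Further probe sets gave 0.07 to 0.71 for Bcl7a and -0.05 for Bcl7c. The PRC2 and DNA methylation list had a median of 0.05, with a difference of list means of -0.02. Cytosolic ribosomal protein genes had 20 of 21 negative with a median of only -0.10, and -0.03 with proliferation as a covariate. Rpl14 stood apart in that list at -1.30 (SE 0.40, limma adjusted p = 0.432), from 4.77 through 6.76 to 7.89 in RAB3A tumours and from 6.85 through 7.96 to 9.38 in ZNF668 tumours. Its probe set was far dimmer than the list, whose means were 12.24 and 12.39. The gene had no further probe set, so how well its transcript was read was not tested.

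In the forebrain and positional identity list, with a median of -0.24 and -0.28 with the covariate, Hoxa5, a homeobox gene of hindbrain and spinal cord identity, was at -2.13 (SE 0.91, limma adjusted p = 0.525) and the midbrain gene En1 at -0.93. Hoxa5 was lowest in RAB3A replicates 1, 2 and 5, at 4.29, 3.87 and 4.36, and between 5.22 and 9.29 in the ZNF668 tumours. The imprinted growth network had 9 of 12 positive with a median of 0.26, and 0.01 with the covariate. The sex-linked list of 4 genes had a median of -0.88 and -0.76. None of these genes was called.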
